A study of Homo sapiens with 6 samples.

Results

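The olfactory receptor (OR) genes of human chromosome 11 were examined for DNA double-strand breaks (DSBs) after camptothecin (CPT) in HCT116, a cell line from a human colorectal carcinoma. All protein-coding genes of the chromosome whose symbol is OR followed by digits, letters and digits were taken, which gave 171 of the 1317 protein-coding genes of chromosome 11 and of the 20098 on chromosomes 1 to 22 and X. The window of a gene was its annotated body plus 5 kb on each side, and the other 1146 protein-coding genes of chromosome 11 were the reference. The series held 6 samples, untreated cells (Ctrl), cells given 10 µM CPT for 10 min (CPT10) and cells given 10 µM CPT for 20 min (CPT20), with 2 biological replicates of each. Sample names write 10 and 20 as µM, but the treatment protocol gives 10 µM throughout and 10 or 20 as minutes, and this reading was used. Peak lists were analysed for the 4 treated libraries, and wherever 4 values are given without names they stand in the order CPT10 replicate 1, CPT10 replicate 2, CPT20 replicate 1, CPT20 replicate 2. Ctrl libraries entered only as the input of the authors' peak calling, so no untreated background measured in the same way is given.

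OR genes encode G protein-coupled receptors that detect odorants. Each mature olfactory neuron uses a single OR allele, while the remaining OR genes, and nearly all of them in other tissues, are kept in compact, silent chromatin. Their coding sequence lies in a single exon as a rule, and they form clusters made by repeated gene duplication, with class I genes (families OR51 to OR56) apart from class II genes. CPT traps topoisomerase I (TOP1), the enzyme that relaxes DNA ahead of and behind moving polymerases, on cut DNA. END-seq ligates an adapter to free DNA ends, so that a DSB with 2 ends gives reverse-strand signal to its left and forward-strand signal to its right. No RNA was measured in these samples, and the silence of OR genes in HCT116 cells is therefore background and was not tested here.

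Chromosome 11 carried 55 class I and 116 class II OR genes of 11 families, beside 198 OR pseudogenes. Joining neighbours less than 1 Mb apart gave 8 clusters. Cluster 1, on the short arm from chr11:4388493-7963255, held 67 OR genes with all 55 of class I and also surrounds the β-globin genes. Clusters 2, 3 and 4 held 7, 2 and 3 genes on the centromere side of the short arm, and cluster 5, at chr11:55110677-56757318, opened the long arm with 48 genes. Cluster 6 held 21 genes, cluster 7 was OR2AT4 alone, and cluster 8 held 22 genes near the end of the long arm. The median annotated length was 1074 bp, and 169 of the 171 genes were shorter than 20 kb. OR51B5 (202 kb) and OR9Q1 (158 kb) were the exceptions. Merged windows of OR genes covered 2432 kb with a GC content of 37.7%, against 70413 kb and 42.9% for other genes. Positions whose surrounding 100 bases occur once in the genome made up 98.2% of OR windows and 98.7% of the others.

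Stretches just upstream of annotated OR 5′ ends, called promoters here for short, were poor in CpG dinucleotides. The median annotated OR gene of 1074 bp is little longer than a coding sequence, such as the 936 bases of OR51B5. Where transcription starts was not measured, so these stretches may not be the true promoters. In the 300 bases upstream of the annotated 5′ end, the median GC content was 36.7% for OR genes (range 19.7 to 59.0%) and 58.7% for other genes (range 28.0 to 86.7%). The median number of CpG dinucleotides was 1 for OR genes and 14 for other genes. No CpG was present in 50 OR promoters (29.2%) and in 35 other promoters (3.05%), and at least 10 were present in 3 OR promoters (1.75%; OR52N2, OR56A3 and OR10Q1, named after their values were seen) and 698 others (60.9%). The letters TATAAA on either strand occurred in 61 OR promoters (35.7%), in 150 others (13.1%) and in 16.0% of all 1317. These are matches of letters in sequences of different base composition. Sequences of 3 stretches at genes named in the results below are given from the GRCh37 reference, 5′ to 3′ on the strand of the gene, with CpG dinucleotides in capitals. The first is the middle of the stretch shared by both 20-min libraries at the single replicated break site in an OR window, that of OR51B5 (chr11:5525668-5525967, printed on the minus strand). The others are the promoters of OR52D1 (chr11:5509615-5509914, plus strand) and OR52B2 (chr11:6191557-6191856, minus strand), the OR genes with the highest and the lowest relative peak density. None of the 3 overlaps an annotated UTR.
20-min site: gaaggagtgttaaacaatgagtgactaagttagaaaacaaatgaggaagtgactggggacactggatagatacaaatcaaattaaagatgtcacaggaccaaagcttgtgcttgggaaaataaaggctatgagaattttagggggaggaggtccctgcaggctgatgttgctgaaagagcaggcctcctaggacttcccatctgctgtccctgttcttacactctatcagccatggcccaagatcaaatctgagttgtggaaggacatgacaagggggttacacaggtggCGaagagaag
OR52D1 promoter: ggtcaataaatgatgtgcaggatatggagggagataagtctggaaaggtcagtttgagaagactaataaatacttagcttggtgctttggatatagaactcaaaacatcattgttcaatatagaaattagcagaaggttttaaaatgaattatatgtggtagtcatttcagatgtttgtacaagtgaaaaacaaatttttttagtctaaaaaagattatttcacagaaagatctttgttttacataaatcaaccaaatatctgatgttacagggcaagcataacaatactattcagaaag
OR52B2 promoter: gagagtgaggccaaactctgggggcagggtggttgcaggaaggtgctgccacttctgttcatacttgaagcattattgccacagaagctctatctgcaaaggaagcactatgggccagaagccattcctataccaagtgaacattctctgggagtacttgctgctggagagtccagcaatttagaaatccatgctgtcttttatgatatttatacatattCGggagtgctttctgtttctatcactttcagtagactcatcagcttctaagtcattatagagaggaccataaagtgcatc

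These sequences held 1, 0 and 1 CpG dinucleotides, in the order given. The 20-min site stretch was overlapped by a forward peak in all 4 libraries, with a −log10 q of 33.6, 14.4, 30.3 and 18.5. The −log10 q is the significance that the authors' peak caller gave each peak. A reverse peak overlapped the same stretch in the CPT20 libraries only. The OR52B2 promoter was overlapped by no peak of any list, and that of OR52D1 by 1 forward peak, in CPT10 replicate 1 (−log10 q of 5.46).

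The forward and reverse lists of the 4 libraries held 286491 to 826744 peaks genome-wide and 13093 to 39023 on chromosome 11, the fewest in CPT20 replicate 2. Read totals of the libraries were not used here. Medians of the −log10 q in OR windows lay between 2.93 and 4.66, equal to those of other windows in all lists but both of CPT20 replicate 2, where they were higher (4.07 against 3.29 forward). The labels call the libraries biological replicates. P-values of permutation tests and limma refer to the spread between these 4 libraries, and those of binomial tests to counting error only. The sign-flip tests take the 4 libraries as independent, although same-numbered ones belong to the same experiment by the study's methods.

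The first question was whether OR windows held fewer strand-specific peaks than windows of other genes. OR windows held 1181, 915, 945 and 507 peaks. This is 0.486, 0.376, 0.389 and 0.208 peaks per kb, against 0.536, 0.378, 0.491 and 0.209 in windows of other genes. The density ratio was thus 0.905 and 0.996 at 10 min and 0.792 and 0.998 at 20 min, with means of 0.95 ± 0.0637 (SD, n = 2) and 0.895 ± 0.146 (SD, n = 2). OR windows were sparser in both replicate 1 libraries and nearly level in both replicate 2 libraries. The mean log2 ratio of -0.12 was below 0 in 4 of 4 libraries (two-sided exact sign-flip permutation p = 0.125, the smallest that 4 libraries allow, so that no such comparison can pass 0.05). With other windows weighted to the GC content of OR windows it was -0.14.

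The size of the difference depended on the reference. Against the 174 other genes shorter than 5 kb, which resemble OR genes in length, the mean log2 ratio of peak density was -0.50. Against the 69 other genes lying inside OR clusters it was 0.02, with the OR windows denser in both replicate 2 libraries only (exact permutation p = 0.5). Those 69 genes had a relative density of 0.905, 0.946, 0.812 and 0.958 of all other genes. They too lay below 1 in 4 of 4 libraries.

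**Figure D1:**
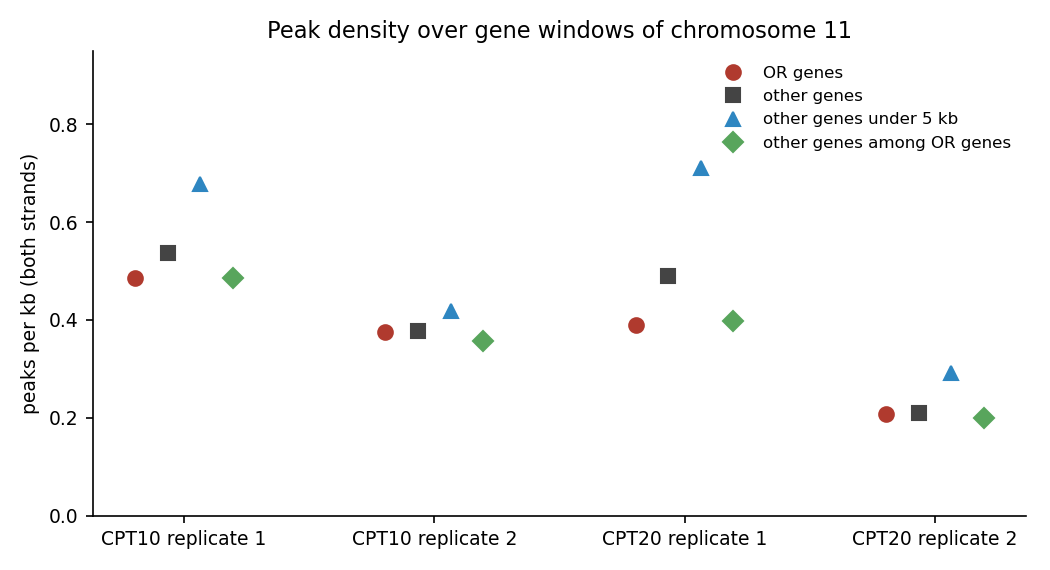
Peaks per kb of merged gene windows (vertical axis, both strands) in each of the 4 treated libraries (horizontal axis), for OR genes, all other protein-coding genes of chromosome 11, other genes shorter than 5 kb and other genes inside OR clusters. Each point is a library, and OR windows lie below short genes in all 4 libraries but close to the genes among them, for example 0.486 against 0.678 and 0.486 in CPT10 replicate 1.

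Next, peaks were joined into DSB sites, each made of a reverse peak and the nearest forward peak if both overlapped or the gap was under 150 bp. OR windows held 76, 36, 55 and 11 sites. Per Mb this is 31.3, 14.8, 22.6 and 4.52 sites, against 41.2, 19.8, 39.5 and 7.87 in windows of other genes. The ratio was 0.758, 0.746, 0.573 and 0.575, which averaged 0.752 ± 0.00859 for the 10-min pair and 0.574 ± 0.00146 for the 20-min pair (SD, n = 2 each). Sites were fewer in OR windows in 4 of 4 libraries (mean log2 ratio -0.61, two-sided exact sign-flip permutation p = 0.125, the smallest possible). Unlike those of peaks, the ratios of the replicates lay close together. They rest on only 11 to 76 sites in OR windows, so the small SDs of 2 libraries do not measure their precision. Counting error of these ratios was not estimated. The mean log2 ratio was -1.72 against other genes shorter than 5 kb and -0.09 against other genes among the OR genes.

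A site can also arise when unrelated peaks of opposite strand happen to be neighbours, and then either order is alike. Among non-overlapping neighbours under 150 bp apart in OR windows, reverse-then-forward pairs numbered 21, 7, 7 and 3, and forward-then-reverse pairs 25, 10, 8 and 1. The break-like order was the rarer one in 3 libraries. The ratio was 0.84 (95% Wilson interval 0.474 to 1.49), 0.70 (0.276 to 1.78), 0.875 (0.330 to 2.32) and 3.0 (0.430 to 20.9), with two-sided exact binomial p = 0.659, 0.629, 1.0 and 0.625. An excess of the break-like order was not detectable at these numbers. Sites made of overlapping peaks were not covered by this count, and pairs in windows of other genes were not counted. The sites of OR windows as a whole therefore cannot be judged by it. Intervals here and below cover counting error only.

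Sites found in both replicates of a time were nearly missing from OR windows. At 10 min, 0 of 171 OR genes had a replicated site in the window, which allows a share of up to 1.75%, whereas 118 of 1146 other genes (10.3%, 95% Wilson interval 8.67 to 12.2%) had one. At 20 min, 1 of 171 OR genes (0.585%, 0.103 to 3.24%) and 156 of 1146 other genes (13.6%, 11.7 to 15.7%) had one. Over all 1317 protein-coding genes of chromosome 11 the share was 8.96% at 10 min and 11.9% at 20 min. The single OR gene was OR51B5. Windows of OR genes are shorter than those of other genes (median 11.1 against 31.4 kb), but among the 174 other genes shorter than 5 kb, 12 (6.90%, 3.99 to 11.7%) had a replicated site at 10 min and 26 (14.9%, 10.4 to 21.0%) at 20 min. Among the 69 other genes inside OR clusters it was 0 at 10 min, which allows up to 4.35% as 3 over the number of genes (Wilson limit 5.27%). At 20 min it was 4 (5.80%, 2.28 to 14.0%). Per Mb of merged OR windows, replicated sites with their midpoint inside numbered 0 at 10 min (exact Poisson interval 0 to 1.52, or up to 1.23 as 3 over the Mb covered). At 20 min they numbered 0.411 (0.0104 to 2.29). For other genes they numbered 1.55 (1.27 to 1.87) at 10 min and 1.63 (1.35 to 1.96) at 20 min. The Poisson intervals of OR and other windows overlapped at both times. Genes share windows and sites in clusters, and no test between gene sets was run.

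**Figure D2:**
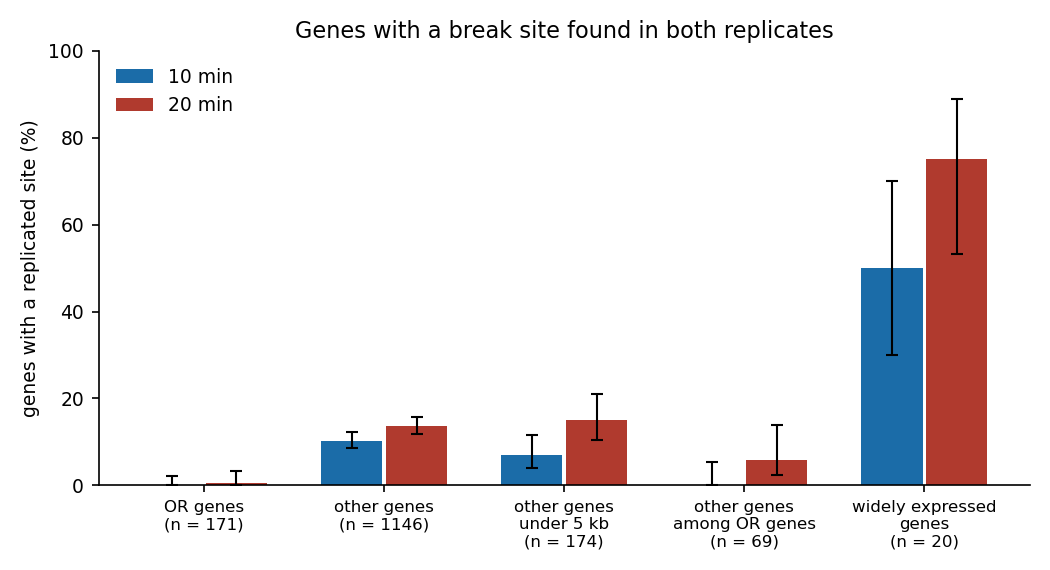
Percent of genes (vertical axis) with a break site found in both replicates of a time within the gene body plus 5 kb, for OR genes and 4 reference sets (horizontal axis, with the number of genes) at 10 and 20 min. Bars are shares and whiskers 95% Wilson intervals; OR genes stand at 0 and 0.585%, widely expressed genes at 50% and 75%.

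Unreplicated sites were not rare in OR windows. At least 1 site of at least 1 library touched 96 of 171 OR windows (56.1%), 137 of 174 other windows of short genes (78.7%) and 1058 of 1146 other windows (92.3%). Sites in all 4 libraries were present in 2 OR windows (1.17%), those of OR51B5 and OR2AT4, in 19 of the short genes (10.9%) and in 293 of the other genes (25.6%). OR2AT4 is the only OR gene between clusters 6 and 8. Its sites had a −log10 q of 2.19 to 4.93 and lay apart in the replicates of both times.

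The second question was whether peaks gathered downstream of gene 5′ ends. Within 5 kb of the annotated 5′ ends of OR genes, downstream peaks numbered 407, 317, 333 and 176 and upstream peaks 409, 317, 318 and 187. The ratios of 0.995, 1.00, 1.05 and 0.941 lay on both sides of 1 (mean log2 ratio -0.01, two-sided exact sign-flip permutation p = 0.75). The same ratio was 1.11, 1.12, 1.2 and 1.29 for other genes, above 1 in 4 of 4 libraries. The log2 ratio of OR genes was lower than that of other genes in 4 of 4 libraries, by a mean of -0.24 (two-sided exact sign-flip permutation p = 0.125, the smallest possible). In 1-kb steps, the density around OR 5′ ends stayed between 0.867 and 0.968 of the density in windows of other genes. Around 5′ ends of other genes it rose from 1.09 ± 0.0903 (SD over 4 libraries) at the far upstream end to 1.53 ± 0.192 from 1 to 2 kb downstream, where OR genes stood at 0.867 ± 0.171. Most of the downstream stretch lies past the 3′ end of an OR gene but inside the body of a typical other gene, so the profile of the 174 other genes shorter than 5 kb (median length 2799.5 bp) was added after the values were seen. It rose from 1.19 ± 0.222 at the far upstream end to 1.62 ± 0.296 from 1 to 2 kb downstream. Their downstream to upstream ratio was 1.11, 1.03, 1.25 and 1.22, and the log2 ratio of OR genes was lower in 4 of 4 libraries, by a mean of -0.21 (two-sided exact sign-flip permutation p = 0.125, the smallest possible). OR genes are still shorter than these, and an effect of gene length was not tested further. Annotated 5′ ends of many OR genes may mark the coding sequence and not the start of transcription. The profiles of OR and other genes may then be centred on unlike features, which was not tested either.

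**Figure D3:**
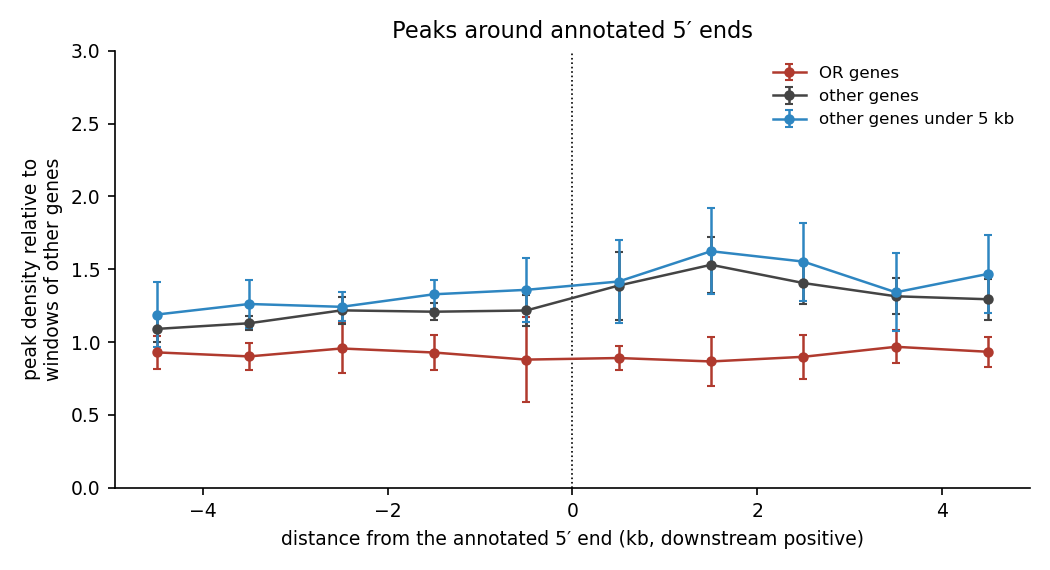
Peak density in 1-kb steps (vertical axis, relative to the density in all windows of other genes, mean and SD over 4 libraries) against distance from the annotated 5′ end in kb (horizontal axis, downstream positive) for OR genes, other protein-coding genes of chromosome 11 and those of them shorter than 5 kb. The OR line stays between 0.867 and 0.968, and the lines of other genes and of the short ones reach 1.53 and 1.62 from 1 to 2 kb downstream.

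The share of strong peaks in OR windows depended on the reference. Peaks reaching a −log10 q of 10 made up 13.2, 2.51, 10.6 and 1.78% of those in OR windows and 16.1, 2.06, 12.8 and 3.07% in other windows. The ratio was below 1 in 3 libraries and 1.22 in CPT10 replicate 2 (mean log2 ratio -0.26, two-sided exact sign-flip permutation p = 0.5). Against other genes shorter than 5 kb it was -1.16, below 0 in 4 of 4 libraries (exact permutation p = 0.125, the smallest possible). Without the 8 OR genes in the body of OR51B5, described below, the mean log2 ratio was -0.70 and below 0 in 4 of 4 libraries (exact permutation p = 0.125, the smallest possible). The strongest forward peak of all OR windows lay in the body of OR51B5 in each of the 4 libraries, with a −log10 q of 36.4, 24.4, 48.1 and 18.5. The strongest reverse peaks lay elsewhere, beside OR56B1 in both CPT10 libraries (28.6 and 14.5), beside OR5B3 in CPT20 replicate 1 (23.9) and beside OR52E4 in CPT20 replicate 2 (12.1).

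OR genes varied among themselves, mostly not in the same way in each library. The relative density of a gene, its peaks per kb over those of all other windows in the same library, had a median of 0.853 over the 171 OR genes (mean of 4 libraries per gene, range 0.275 to 1.92) and 1.08 over other genes. A typical OR window held few peaks, with a median of 6, 5, 5 and 3, and 13 windows held none in CPT20 replicate 2. Across the 171 genes, Spearman's rho between 2 libraries lay between 0.0710 and 0.262, and without the 8 genes in the body of OR51B5 between -0.0217 and 0.184. Genes are not independent replicates here, and overlapping windows share peaks, so no p is given. Relative density was above 1 in all 4 libraries for 10 OR genes (5.85%) against 317 other genes (27.7%), and below 1 in all 4 for 37 OR genes (21.6%) against 177 (15.4%). Of the 10, 5 lie in the body of OR51B5 (OR52D1, OR51I2, OR51Q1, OR51B5 itself and OR51B2).

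By their mean relative density, the 5 highest were OR52D1, OR51I2, OR51Q1, OR5M9 and OR5D14. OR52D1 (chr11:5509915-5510979) had 10, 6, 13 and 5 peaks in its window, a relative density of 1.92 (1.43 to 2.39 over libraries). OR51I2 had 21, 9, 17 and 7 peaks (1.91, 1.38 to 2.28), and OR51Q1 had 9, 5, 6 and 8 (1.81, 1.10 to 3.45). These 3 are class I genes inside the body of OR51B5. OR5M9 had 8, 8, 8 and 4 peaks (1.64, 1.36 to 1.94) and OR5D14 had 10, 5, 5 and 6 (1.62, 0.931 to 2.62), both class II genes of cluster 5. All 5 but OR5D14 lay above 1 in every library.

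The 5 lowest were OR52B2, OR51A2, OR52N5, OR52I2 and OR10G6. OR52B2 (chr11:6190585-6191556) had 1, 0, 5 and 0 peaks in its window, a relative density of 0.275 (0 to 0.929 over libraries), OR51A2 had 1, 2, 2 and 1 (0.366, 0.170 to 0.484) and OR52N5 had 6, 3, 2 and 1 (0.407, 0.237 to 0.651). OR52I2 had 9, 4, 6 and 1 peaks and OR10G6 had 5, 2, 4 and 0. Four-library ranges of all 5 stayed below 1, and OR10G6 was the only class II gene among them. OR51E2 and OR51E1, receptors known for their expression in prostate and named here for that reason, had relative densities of 0.780 (0.519 to 1.05) and 0.521 (0.277 to 0.676). OR51B4, which has been described in colorectal cancer cells and was also named after its values were seen, had 6, 6, 6 and 3 peaks and a relative density of 1.23 (1.02 to 1.45), with 2 sites in CPT10 replicate 1 and none in the others. It lies beside the distal end of OR51B5.

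**Figure D4:**
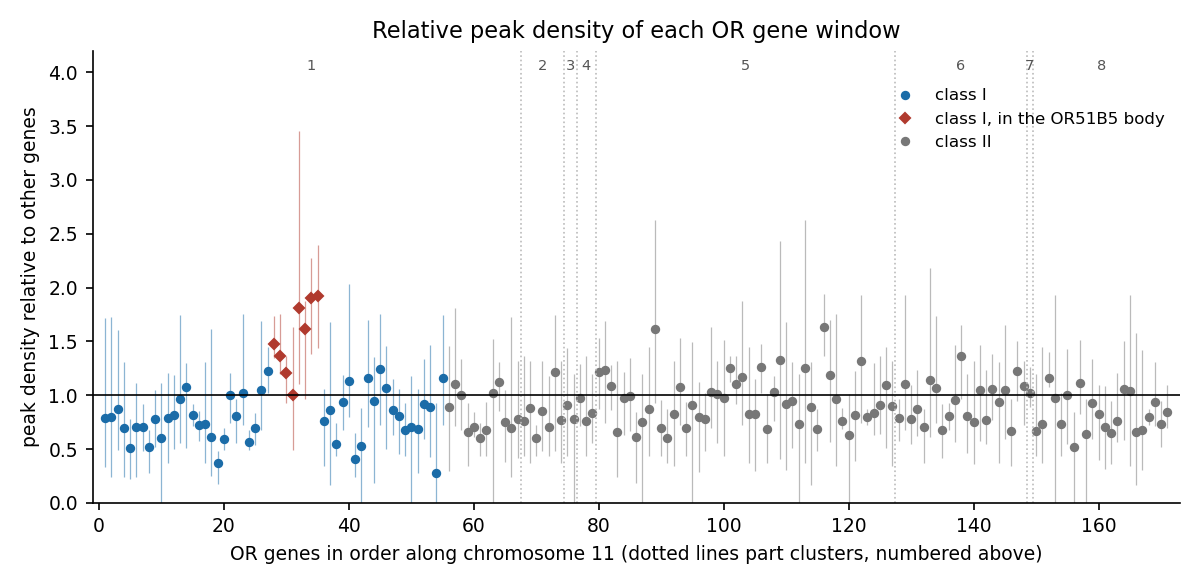
Relative peak density of the window of each of the 171 OR genes (vertical axis, ratio to the density of all other protein-coding gene windows of chromosome 11 in the same library) in their order along the chromosome (horizontal axis). Points are means and lines the range over 4 libraries; the 8 class I genes in the body of OR51B5 lie between 1.01 and 1.92, above most of the others.

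Whether class I or class II genes were denser in peaks depended on which peaks and genes were counted. Class I windows held 0.475, 0.379, 0.429 and 0.229 peaks per kb and class II windows 0.491, 0.375, 0.368 and 0.198, a mean log2 ratio of 0.10 (two-sided exact sign-flip permutation p = 0.375). Class I was denser in 4 of 4 libraries over gene bodies without flanks (log2 ratio 0.37), with lists of equal length (0.30) and for peaks reaching a −log10 q of 3 (0.27) or 10 (1.47), each with an exact permutation p = 0.125, the smallest possible. The ratio changed direction to -0.18 without the genes in the body of OR51B5, and was then below 0 in 4 of 4 libraries (exact permutation p = 0.125). Median relative densities of the 11 families ran from 0.736 in OR6 (5 genes) and 0.741 in OR10 (16 genes) to 0.939 in OR8 (23 genes) and 1.02 in OR2 (5 genes). Medians of the largest families, OR5 (35 genes, 0.888), OR52 (27 genes, 0.799) and OR4 (25 genes, 0.878), lay between these, and the ranges of all families overlapped. Relative density of the 8 clusters, mean and SD over libraries, lay between 0.827 ± 0.213 in cluster 2 and 1.02 ± 0.166 in the single window of cluster 7, with 0.942 ± 0.0977 in cluster 1 and 0.965 ± 0.117 in cluster 5. No cluster stood apart beyond this spread.

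The share of forward peaks differed between clusters. In windows of other genes 42.1% of peaks were forward in CPT10 replicate 1, whose reverse list is the longer, and 50.2, 50.2 and 49.9% in the remaining libraries. Over the whole of cluster 2, from its first to its last OR gene, forward peaks made up 26.1% (95% Wilson interval 19.5 to 34.0%), 37.4, 35.5 and 21.0% (12.7 to 32.6%), and so were the minority in all 4. In OR windows of cluster 2 there were 3, 6, 6 and 2 forward against 39, 12, 19 and 14 reverse peaks. Cluster 4, the next to the centromere on the same arm with 3 genes, had forward shares of 37.3, 33.3, 40 and 25.0%. Across the centromere gap of the assembly, cluster 5 had 47.1, 58.6, 55.4 and 64.3% forward peaks, above other windows in all 4 libraries. Cluster 8 had 49.3, 59.4, 58.5 and 62.5%, and cluster 6 47.7, 53.7, 56.1 and 55.2%. Cluster 1 stood at 39.9, 46.6, 48.2 and 45.5%. In OR windows alone, clusters 1, 3, 4 and 6 did not lie on 1 side of other windows in all libraries. Their shares were 42.7, 51.5, 51.3 and 46.6% in cluster 1, 45.5, 18.2, 50 and 0% in cluster 3 (1 to 11 peaks a library), 38.1, 25, 50 and 60% in cluster 4 (5 to 21 peaks) and 42.5, 47.6, 51 and 53.3% in cluster 6. Stretches between OR windows showed the same sides, with 33.7, 37.3, 39.4 and 22.4% in cluster 2 and 48.5, 60.4, 56.6 and 67.9% in cluster 5. This pattern was noticed in the data and has no test.

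The body of OR51B5 was denser in peaks than the remaining OR windows in 4 of 4 libraries, a contrast chosen after the values were seen and given with no test. The gene is annotated on the minus strand from chr11:5324674-5526882, while its coding sequence of 936 bases (chr11:5363819-5364754) lies 162 kb from the annotated 5′ end. That 5′ end, at base 5526882, is shared with the long transcripts of HBE1 (embryonic ε-globin), and HBG2 (fetal γ-globin) has a long transcript that starts just downstream. The body also holds 7 further OR genes, all of class I. It contained 149, 108, 139 and 75 peaks, or 0.737, 0.534, 0.687 and 0.371 per kb. Relative to windows of other genes this was 1.37, 1.41, 1.40 and 1.78 (mean 1.49 ± 0.190, SD over 4 libraries). The remaining OR windows had 0.863, 0.958, 0.737 and 0.927 (mean 0.871 ± 0.0979), so that both ranges lay apart. The body of OR9Q1, the other long member, had 0.969, 0.923, 0.659 and 0.577. Leaving out the 8 OR genes of the OR51B5 body moved the mean log2 ratio of OR to other windows from -0.12 to -0.21 for peaks and from -0.61 to -0.82 for sites.

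Forward peaks were most frequent in the 80 kb that follow the shared 5′ end. In this stretch, whose limit was set after the values were seen, forward peaks numbered 48, 36, 47 and 23 and reverse peaks 24, 7, 18 and 11. In the next 120 kb of the body they numbered 28, 28, 34 and 11 and 47, 35, 39 and 29, so that reverse peaks were the more frequent in all 4 libraries. Per 10 kb, forward peaks fell from 6.0, 4.5, 5.88 and 2.88 in the first stretch to 2.33, 2.33, 2.83 and 0.917 in the second. The 40 kb upstream of the 5′ end held 1.5, 2.5, 1.75 and 1.0 forward peaks per 10 kb. Of 8 forward peaks found in all 4 libraries in OR windows, 7 lay in the body of OR51B5, which is 34.6 per Mb there, against 0.449 per Mb in the remaining OR windows and 4.26 per Mb in other windows. The remaining one lay at OR5A1. Reverse peaks found in all 4 libraries numbered 2 in OR windows, 0.822 per Mb against 5.24 in other windows, one in the shared stretch of OR9Q1 and OR6Q1 and one beside OR1S2 and OR1S1.

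**Figure D5:**
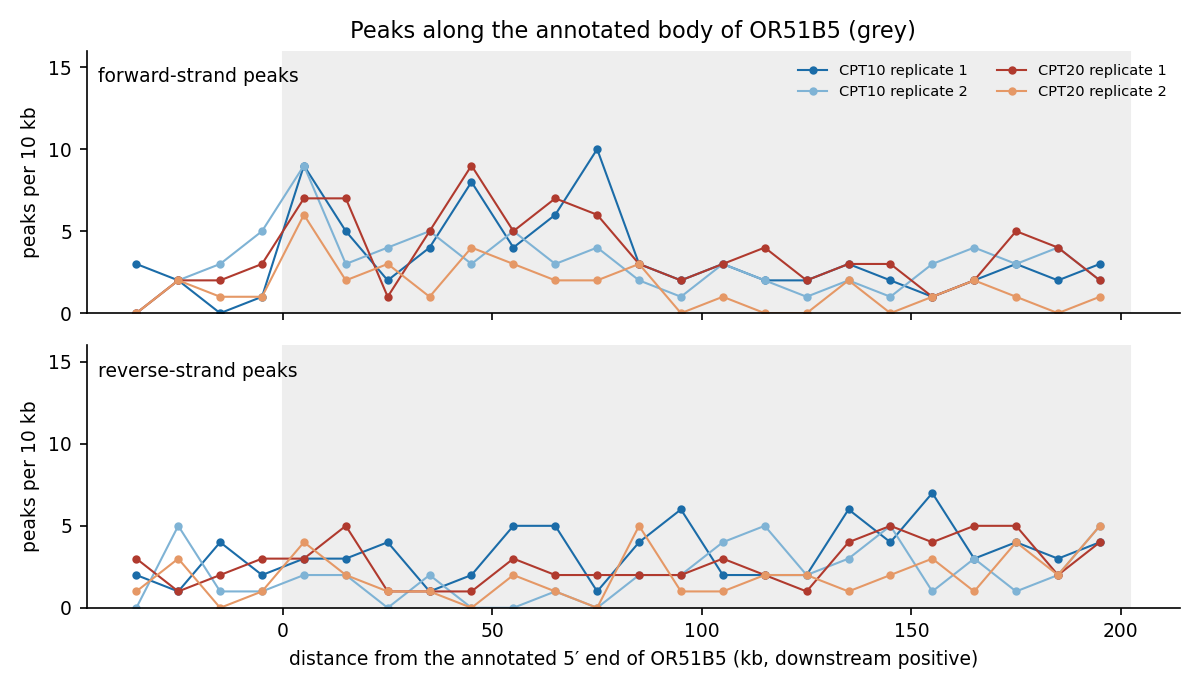
Peaks per 10 kb (vertical axes) on the forward strand (top) and the reverse strand (bottom) against distance from the annotated 5′ end of OR51B5 in kb (horizontal axis, downstream positive), with 1 line for each of the 4 treated libraries and the annotated body in grey. Forward peaks stand at 6 to 9 in the first 10 kb downstream and average 2.88 to 6.0 over the first 80 kb, where reverse peaks average 0.875 to 3.0.

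The single replicated site of OR windows lay at this 5′ end, at 20 min. It spanned chr11:5525024-5526739 (1716 bp), from 143 to 1859 bp downstream of the 5′ end, far from the OR coding sequence and inside the long transcripts of HBE1 and HBG2 as well. In CPT20 replicate 1 the site covered 1058 bp with a −log10 q of 15.3, and in CPT20 replicate 2 it covered 1186 bp with a −log10 q of 5.81, the smaller of the paired peaks in each case. They shared 528 bp (chr11:5525554-5526081), 49.9% of the shorter site. At 10 min the place already carried forward peaks, with a −log10 q of 33.6 in CPT10 replicate 1 and 14.4 in CPT10 replicate 2. No reverse peak overlapped it in CPT10 replicate 1, and 1 with a −log10 q of 2.21 did in CPT10 replicate 2, where the site was 111 bp long. Forward signal was thus present in 4 of 4 libraries, and the site was called where a reverse peak lay beside it.

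The last comparison asked whether OR windows changed between 10 and 20 min. The density ratio of OR to other windows gave a log2 difference of -0.09 between 20 and 10 min (two-sided exact permutation p = 1.0, where 2 against 2 libraries allow no p below 0.333). Within replicate 1 it was -0.19 and within replicate 2 it was 0.00360. Per window, limma was fitted to log2 peak numbers over 19301 windows of all protein-coding genes with a mean of at least 2 peaks, 169 of them of OR genes. None of the 169 was called at an adjusted p under 0.05, and the share called over all windows was 0%. At an unadjusted p under 0.05, 632 windows (3.27%) and 1 OR window passed. The latter was OR9Q1, with a log2 difference between 20 and 10 min of -0.56 (SE 0.24, adjusted p = 0.997 by limma). Its window held 86 and 61 peaks at 10 min and 56 and 20 at 20 min. In simulated data over 19226 windows, where changes were placed only in windows with a mean of at least 20 peaks, the fit called 100% of 50 windows raised 4-fold and 34% of 50 raised 2-fold, but 72% of 50 lowered to 0.25 and 22% of 50 lowered to 0.5 of their level. A typical OR window held far fewer peaks than that, and how large a change the fit could find there was not tested. Spread in the simulation was set by assumption, with no deviation shared by same-numbered libraries. The shares found there therefore need not hold for the real libraries.

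Genes of the olfactory pathway and genes around the ORs give the surroundings. Of a list of 20 genes of olfactory signalling and receptor choice, 2 lie on chromosome 11. OMP, the olfactory marker protein, had 5, 3, 8 and 0 peaks in its window (relative density 0.80, 0 to 1.55 over libraries), and CNGA4, a subunit of the olfactory cyclic nucleotide-gated channel, had 8, 8, 15 and 5 (1.15, 0.756 to 1.55). Neither had a replicated site, and neither passed the limma test between times. Among the genes lying between the ORs, HBE1 and HBG2 share the replicated 20-min site at the 5′ end of OR51B5, and neither had a replicated site at 10 min. HBB, the adult β-globin gene, had a relative density of 0.715 (0.535 to 0.878). TRIM genes of the cluster, which encode ubiquitin ligases, lay between 0.563 (TRIM6) and 0.875 (TRIM68). Of 20 widely expressed genes of chromosome 11 taken as the opposite reference, 10 had a replicated site at 10 min (50%, 29.9 to 70.1%) and 15 at 20 min (75%, 53.1 to 88.8%). Their median relative density was 2.18, against 0.853 for OR genes, and RPS25, a protein of the small ribosomal subunit, was highest at 3.48 (2.85 to 4.79). Of these 20 genes, 19 had a relative density above 1, and EIF3F stood at 0.949.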

How the data were processed

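END-seq libraries of HCT116 cells, 2 biological replicates per condition, with murine spike-in cells, were processed by the authors. Per the study's methods and the submitters' notes, reads were trimmed with Trim Galore and aligned to hg19 with Bowtie2. Properly paired reads of mapping quality 30 or more, with duplicates, were split by strand with SAMtools, and peaks were called with MACS2 for each library and strand against Ctrl, with no local background and a q-value threshold of 0.05. Nothing was pooled. In the 8 deposited lists the authors give each peak a score (10 times the −log10 q), a linear fold enrichment (ratio), and a −log10 p-value with its −log10 q-value. Only positions and −log10 q-values were used here, except that −log10 p-values ranked the peaks when lists were cut to equal length. Read depth is not in the lists and was not used, so list length (286491 to 826744 peaks) sets the precision.

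Coordinates are hg19, with the GRCh37 assembly and GENCODE release 44 mapped to it as reference. Peaks were assigned by summit and sites by midpoint, and a gene has a site where its window overlaps one. Sites followed the study's definition (gap under 150 bp), and replicated sites overlapped by at least 1 bp. The study's removal of blacklisted regions and its read-count test were not repeated. Tests were exact sign-flip permutations over 4 libraries, exact permutations of 2 against 2 libraries, exact binomial tests and, per window, limma 3.58.1 in R 4.3.3 (pseudocount of 0.5, windows with a mean of at least 2 peaks, Benjamini-Hochberg over all windows). Permutations, binomial tests and Wilson intervals used scipy 1.17.1. Simulated data served to test the functions for sites, replicate overlap, pair order, windows, permutations, unique positions and limma. Genes named are those with replicated sites, the 5 highest and 5 lowest by mean relative density, called genes, and the fixed lists; other OR genes were named after their values were seen. The members and lists were chosen with earlier results of these data known. Alternatives changed the window, peak threshold, reference genes, overlap, scaling and libraries; the closing section gives their effect. Results for 1 gene of these lists and 1 sequence are not reported here.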

Additional observations from a re-analysis of the deposited data

How the results depend on the processing

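Of 133 values recomputed for 14 results under 28 alternative settings, 124 kept their direction and their side of the threshold or stayed within counting error. OR windows had a higher peak density than other windows against the other genes among the ORs only (log2 ratio 0.0239). The share of strong peaks turned to a log2 ratio of 0.20 over gene bodies without flanks, against -1.16 with short other genes as reference, and the class I to class II ratio to -0.18 without the members in the OR51B5 body. The pair order ratio of CPT10 replicate 1 turned to 1.10 at −log10 q of 3 or more. The share of OR genes with a replicated site at 20 min was 0% at −log10 q of 10 or more, 0% where replicates had to share 0.5 of the shorter site, and 0% without the members in the OR51B5 body, and it was 2.92% (5 genes) when peaks under 500 bp apart were joined. Leaving out 1 library at a time gave -0.261 to 0.0721 for the density ratio between times, positive without CPT20 replicate 1 only, and -0.0315 to 0.0198 for downstream over upstream peaks, positive without CPT20 replicate 2 only. Without a library, the log2 ratio stayed between -0.16 and -0.05 for peaks and between -0.67 and -0.54 for sites. At a −log10 q of at least 10, site density and pair order gave no value for lack of sites in OR windows. The cause of these changes was not tested.

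Same-numbered libraries belong to the same experiment by the study's methods, but the labels do not say so. Their deviations from the group means correlated at 0.199 over 19301 windows. With the replicate number as a block, limma called 0 of 169 OR windows (lowest adjusted p = 0.418) and 0 of all 19301 windows between times. The fit without it also called none of either, so the calls cannot show what the block does to OR windows. The density ratio between times stayed at a log2 difference of -0.09. Alternatives added after seeing the data were the GC-weighted reference, leaving out the OR51B5 body, short other genes as reference for the 5′ ends, and libraries of 1 replicate number. Peak density gave a log2 ratio of -0.24 in replicate 1 libraries and -0.00469 in replicate 2 libraries, and site density -0.60 and -0.61. A median OR window held 3 to 6 peaks, so single OR genes are measured with little precision.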
